A study of Mus musculus with 8 samples.

Results

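The 31 genes described here encode subunits of the Polycomb repressive complexes PRC1 and PRC2. They were taken from a given list of names and found among the 36528 Entrez identifiers of each file. All 31 were present, and all 31 passed the filter on low counts, among 16929 genes tested. The list holds 20 PRC1 and 11 PRC2 genes and is not a full roster of either complex. The cells were primary mouse mesothelial cells, from the lining of the omentum. Polyadenylated RNA was sequenced from 4 libraries labelled BAP1 KO and 4 labelled WT. The labels give no allele, strain, age, Cre driver or treatment, and do not say which exons were deleted or whether the libraries came from separate animals.

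BAP1 strips ubiquitin off histone H2A in the nucleus, and this is the mark that PRC1 places through its RING1 and RNF2 subunits. PRC1 exists in canonical forms, which hold a CBX and a PHC protein and bind the histone H3 methylation made by PRC2, and in variant forms, which hold RYBP or YAF2 and are sorted by their PCGF subunit. PRC2 consists of EZH1 or EZH2 with EED, SUZ12 and RBBP4 or RBBP7, and accessory proteins steer it to chromatin. The comparison asks whether RNA of the complexes that write these marks differed between BAP1 KO and WT cells.

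The libraries held 67.1 to 84.9 M counts, above the 30 M reads for which the labels say they were sequenced, and a subunit gene had between 163 and 16487 counts in a library. Bap1 itself stood at 54.0, 53.1, 52.0 and 53.7 CPM in BAP1 KO, against 63.1, 62.6, 62.9 and 64.2 CPM in WT, where CPM are counts per M after scaling between libraries. This is a log2 fold change of -0.25 ± 0.03 (SE), so most Bap1 RNA was still counted in the libraries labelled BAP1 KO. Without knowing the deleted exons, reads outside them check nothing. Of 10 mesothelial markers, 4 were higher, 4 lower and 2 did not pass. Wt1 stood at 166 CPM in BAP1 KO and 121 CPM in WT, and Cldn15 at 51.0 CPM in BAP1 KO and 29.0 CPM in WT. Msln stood at only 3.06 CPM in BAP1 KO and 6.95 CPM in WT, and Krt18 at 4.47 CPM in BAP1 KO and 11.7 CPM in WT. Upk3b, the most abundant of the 10, stood at 464 CPM in BAP1 KO and 462 CPM in WT and did not pass. The 10 mesothelial markers summed to 1165 to 1170 CPM in BAP1 KO and 1089 to 1116 CPM in WT. Markers of macrophages, fibroblasts and smooth muscle were abundant, those of adipocytes, endothelium and lymphocytes were low, and many differed between genotypes. The 8 macrophage markers, 4 higher and 4 lower, summed to 14145 to 14642 CPM in BAP1 KO and 11849 to 12136 CPM in WT. Lyz2, at 11027 CPM in BAP1 KO and 8388 CPM in WT, made up most of the sum. The other macrophage markers together were not higher in BAP1 KO. The 6 fibroblast markers, all lower, summed to 8330 to 8687 CPM in BAP1 KO and 9651 to 10389 CPM in WT. Of the 4 smooth muscle markers, 2 were higher and 2 did not pass. Their sums overlapped, at 9841 to 10037 CPM in BAP1 KO and 9557 to 9924 CPM in WT. Adipocyte markers, 3 of 3 tested higher and Lep at 0 throughout, summed to 11.96 to 13.4 CPM in BAP1 KO and 6.25 to 7.25 CPM in WT. Endothelial markers, 3 of 4 lower, summed to 12.03 to 14.0 CPM in BAP1 KO and 19.3 to 20.3 CPM in WT, and lymphocyte markers, 1 higher and 1 lower, to 2.37 to 2.54 CPM in BAP1 KO and 4.05 to 4.36 CPM in WT. In such bulk RNA, fewer cells of a type and less RNA per cell cannot be told apart, and the part of cell composition in the results below was not tested.

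On the per-length scale the subunits differed widely in level. In size-factor-adjusted RPKM (reads per kilobase per M), the histone chaperones Rbbp7 and Rbbp4, which also serve other chromatin complexes, were highest, at 80.6 ± 2.1 and 43.0 ± 1.1 RPKM in BAP1 KO and 82.8 ± 0.83 and 44.0 ± 0.78 RPKM in WT (SD, n = 4 each). At the other end stood Rybp, at 0.66 ± 0.09 RPKM in BAP1 KO and 0.62 ± 0.05 in WT, with Cbx7 and Cbx2 close by. In the CBX, RYBP and PHC families 1 member dominated. Cbx6 held 87.6 ± 0.25% of the summed RPKM of the 4 CBX genes measured here in BAP1 KO and 88.5 ± 0.30% in WT. Yaf2 held 96.2% of the sum with its paralogue Rybp in BAP1 KO and 96.4% in WT. Phc2 held 68.7% of the 3 PHC genes in BAP1 KO and 69.5% in WT, and Pcgf3 49.5% of the 6 PCGF genes in BAP1 KO and 47.8% in WT. The 2 methyltransferases were near parity, with Ezh2 at 7.02 RPKM and Ezh1 at 6.19 RPKM in BAP1 KO, and 7.62 and 6.30 RPKM in WT. Only uniquely aligning reads were counted. Of the 50-base windows in GENCODE transcripts, 16.7% of those of Bmi1, 15.3% of Pcgf1 and 8.9% of Rybp also occur in another gene, mainly a processed copy, so these levels are uncertain. Rbbp7 shares 11.2% of its windows and Kdm2b 12.5%, partly with a processed pseudogene. Phf1 (28.3%), Rbbp4 (17.2%) and L3mbtl2 (13.6%) share theirs mainly with genes whose exons they overlap.

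**Figure D1:**
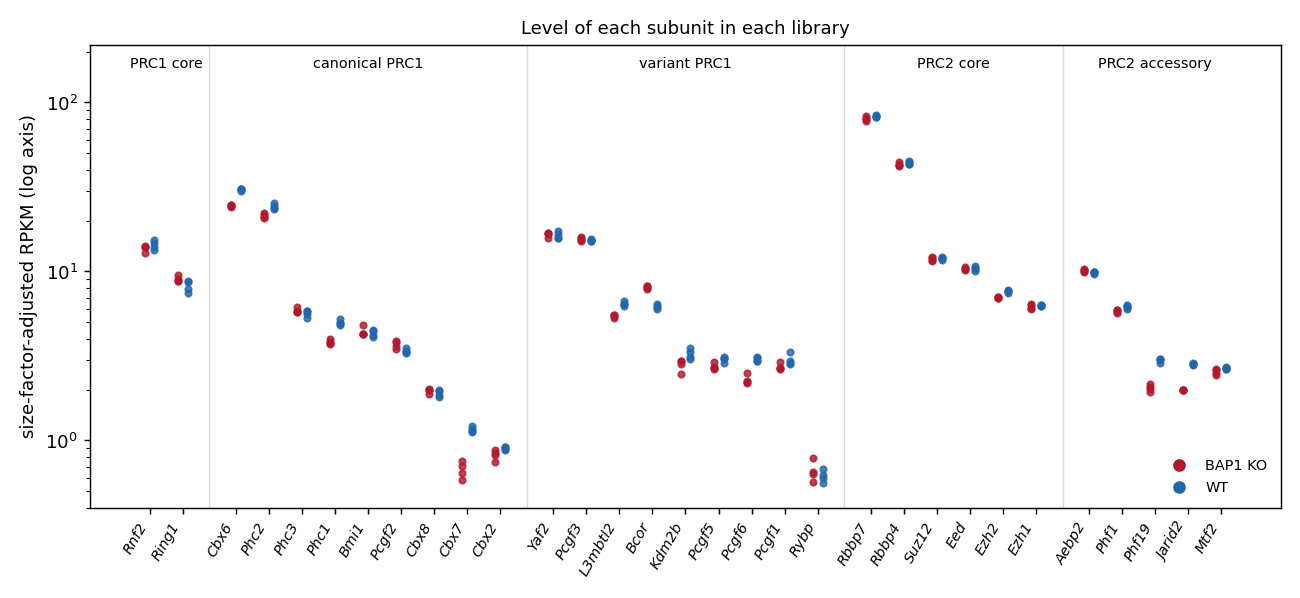
Size-factor-adjusted RPKM (log axis) of the 31 subunits, grouped by complex and ordered by the WT mean within each group; each point is a library (BAP1 KO red, left; WT blue, right; n = 4 each). Rbbp7 lies near 80 RPKM and Rybp below 1 RPKM in both genotypes, while for Cbx7, Jarid2 and Phf19 all BAP1 KO points lie below all WT points.

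Of the 31 subunits, 3 were higher and 12 lower in BAP1 KO, and 16 did not pass (edgeR quasi-likelihood test, Benjamini-Hochberg adjusted p below 0.05). Differences below are BAP1 KO minus WT. The same test called 61.1% of all tested genes, 29.0% higher and 32.1% lower, so the share of subunits called, 48.4%, was not above the background. The changes were mostly small. The median size of the log2 change was 0.12 for the subunits and 0.18 for all tested genes, and the median signed change was -0.08 for the subunits and -0.0046 for all tested genes. Only Cbx7 was both called and past a 1.5-fold change, as were 14.8% of all tested genes. BAP1 KO and WT values did not overlap in 15 of the 31 subunits, or 48.4%, and in 53.8% of all tested genes.

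**Figure D2:**
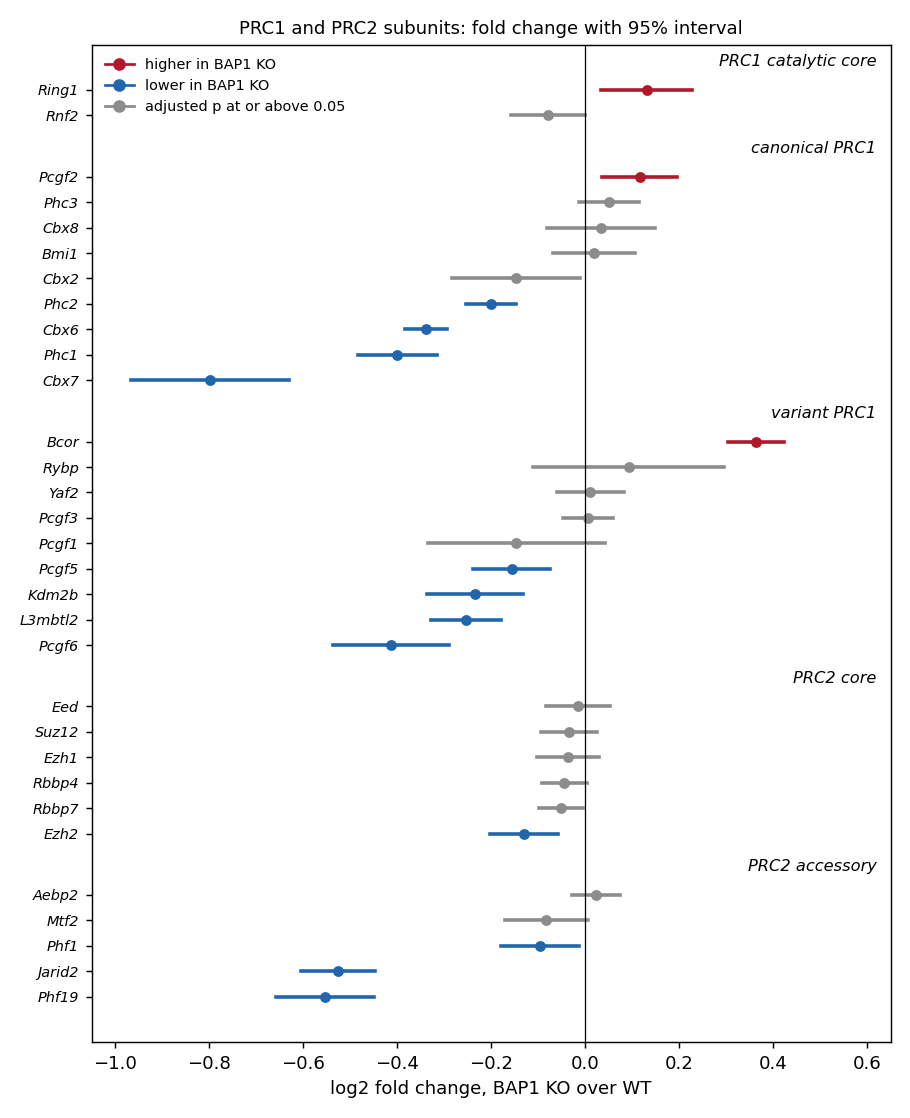
Log2 fold change of BAP1 KO over WT for the 31 subunits by complex, with 95% intervals from the fit; red marks genes called higher, blue genes called lower and grey genes with adjusted p at or above 0.05. Cbx7 lies lowest at -0.80 and Bcor highest at 0.36, and 5 of the 6 PRC2 core genes are grey with intervals that come near or cross 0.

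The catalytic pair of PRC1 showed at most slight differences. Ring1, the less abundant E3 ligase of the pair, had 17.9, 17.9, 18.4 and 19.6 CPM in BAP1 KO, against 18.0, 16.3, 15.3 and 17.8 CPM in WT. Groups overlapped, and Ring1 was called higher by 0.13 ± 0.05 on the log2 scale (adjusted p = 0.018). The call was lost without BAP1 KO replicate 4 (0.10), without WT replicate 2 (0.11) or WT replicate 3 (0.09), and once GC and length trends were taken out (0.07, adjusted p = 0.13). Rnf2, the more abundant ligase here, had 41.7, 46.2, 45.5 and 45.9 CPM in BAP1 KO, against 50.6, 48.9, 45.9 and 44.2 CPM in WT. It did not pass (log2 fold change -0.08, 95% interval -0.16 to 0.000023). It did pass with no filter, with 1 surrogate variable, with upper quartile factors or none at all, and without WT replicate 4 (-0.11, adjusted p = 0.0074). Over all alternatives but the 1.5-fold test its adjusted p ran from 0.0074 to 0.66. Its exons overlap those of Trmt1l, which rose by 0.17 ± 0.03, over 158 bp.

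Canonical PRC1 counted 1 rise, 4 falls and 4 genes that did not pass among 9. The share called was 55.6%, against 61.1% of all tested genes. Cbx7, a chromodomain reader of histone H3 methylation that helps repress the Cdkn2a locus, had 3.08, 2.88, 2.61 and 2.37 CPM in BAP1 KO, against 4.76, 4.62, 4.65 and 4.97 CPM in WT. Every BAP1 KO library lay below every WT library, at 57.5% of the WT level. The log2 fold change was -0.80 ± 0.08 (adjusted p = 8.0e-10), from 172 to 393 counts a library, the largest of the 31 subunits. Cbx6, the abundant CBX member, had 133.9, 133.2, 134.6 and 132.4 CPM in BAP1 KO and 166.1, 170.3, 168.9 and 169.9 CPM in WT. It fell by 0.34 ± 0.02 on the log2 scale with no overlap (adjusted p = 1.5e-14). Cbx6 shares 563 bp of exon on the same strand with Npcd, a transcript that fell too (-0.50 ± 0.04), and the reads of both cannot be told apart there. Cbx7 exons overlap 100 bp of Apobec3, which lies on the opposite strand and fell by 0.34 ± 0.04.

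Cbx2 and Cbx8, the other chromodomain members measured, did not pass. Cbx2 had 5.03, 5.43, 4.61 and 5.23 CPM in BAP1 KO, against 5.49, 5.73, 5.68 and 5.54 CPM in WT, which do not overlap (log2 fold change -0.15 ± 0.07, adjusted p = 0.058). Cbx2 was called lower without scaling factors (library totals), with upper quartile factors, with GC and length trends taken out (-0.21) and without BAP1 KO replicate 2 (-0.18, adjusted p = 0.033). Cbx8 stood at 7.72 ± 0.23 CPM in BAP1 KO and 7.55 ± 0.35 CPM in WT, with a 95% interval of the log2 difference from -0.08 to 0.15. On GRCm38.p6 the 4 genes form 2 neighbouring pairs. Cbx6 and Cbx7 lie 81.5 kb apart on chromosome 15, and both fell. Cbx2 and Cbx8 lie 5.03 kb apart on chromosome 11, and neither passed.

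The promoter window of Cbx7 is shown because this gene had the largest change. It covers chr15:79932597-79932896 (GRCm38.p6, minus strand; RefSeq), 250 bases before to 50 after an annotated start, and holds 33 CpG dinucleotides. The capitals mark 2 overlapping matches, on the reverse strand, to the NRF1 motif (GCGCA, any base, GCGC).
Cbx7: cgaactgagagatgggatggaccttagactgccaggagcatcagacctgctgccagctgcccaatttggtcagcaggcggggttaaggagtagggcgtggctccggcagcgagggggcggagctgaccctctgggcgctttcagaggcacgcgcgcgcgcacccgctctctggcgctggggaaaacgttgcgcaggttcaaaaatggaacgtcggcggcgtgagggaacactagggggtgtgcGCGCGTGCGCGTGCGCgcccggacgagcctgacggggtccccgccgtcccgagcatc
A match describes letters in this window and not binding; the motif was found in the promoters of 7 of the 27 subunits with a window and of 10.1% of tested genes.

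The PHC proteins, which polymerise through their SAM domains and compact chromatin, differed among themselves. Phc1 had 16.1, 15.03, 15.4 and 15.5 CPM in BAP1 KO, against 19.7, 20.3, 20.4 and 21.3 CPM in WT, a fall of 0.40 ± 0.04 on the log2 scale (adjusted p = 6.3e-10). Phc2, the abundant member, had 114.2, 109.7, 110.9 and 117.5 CPM in BAP1 KO, against 125.5, 130.9, 127.8 and 135.0 CPM in WT, a fall of 0.20 ± 0.03. Neither overlapped between genotypes. Phc3 did not pass, at 66.3 ± 2.4 CPM in BAP1 KO and 64.0 ± 2.8 CPM in WT (log2 interval -0.01 to 0.11). Neither PCGF partner of canonical PRC1 was called lower. Pcgf2 had 25.2, 23.1, 24.0 and 25.7 CPM in BAP1 KO, against 22.5, 22.1, 22.4 and 23.5 CPM in WT. It was called higher (0.12 ± 0.04, adjusted p = 0.011) with overlapping groups. The call was lost without BAP1 KO replicate 4 (0.10, adjusted p = 0.053) and with GC and length trends taken out (0.08, adjusted p = 0.058). Bmi1, its paralogue, stood at 24.4 ± 1.6 CPM in BAP1 KO and 24.1 ± 1.1 CPM in WT (interval -0.07 to 0.11).

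Variant PRC1 counted 1 rise, 4 falls and 4 genes that did not pass among 9. Here too 55.6% were called, against 61.1% of all tested genes. Bcor, the scaffold of the PCGF1 form, had 57.6, 55.5, 57.7 and 56.2 CPM in BAP1 KO, against 43.6, 42.8, 44.6 and 45.4 CPM in WT. All BAP1 KO libraries were above all WT libraries, at 128.7% of the WT level (log2 fold change 0.36 ± 0.03, adjusted p = 2.5e-12). Neither Kdm2b nor Pcgf1, which belong to the same form, was called higher. Kdm2b, a demethylase whose zinc finger binds unmethylated CpG islands, fell, with 20.3, 17.2, 19.5 and 20.4 CPM in BAP1 KO and 21.2, 23.3, 21.8 and 24.5 CPM in WT (-0.23 ± 0.05, adjusted p = 0.00022). Pcgf1 stood at 2.40 ± 0.11 CPM in BAP1 KO and 2.65 ± 0.21 CPM in WT and did not pass (interval -0.34 to 0.04).

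Pcgf6 and L3mbtl2, of the PCGF6 form, fell. Pcgf6 had 5.80, 6.59, 5.90 and 5.71 CPM in BAP1 KO, against 8.07, 8.30, 7.78 and 7.81 CPM in WT (-0.41 ± 0.06, adjusted p = 6.1e-07). L3mbtl2, a chromatin reader with MBT repeats, had 21.0, 21.2, 20.8 and 20.3 CPM in BAP1 KO, against 24.7, 24.1, 24.9 and 25.6 CPM in WT (-0.25 ± 0.04, adjusted p = 4.5e-07). Neither gene overlapped between genotypes. L3mbtl2 exons overlap those of Chadl on the opposite strand over 1023 bp, 17.2% of its exon length, and Chadl fell too (-0.46 ± 0.11) but stood at only 1.52 CPM in BAP1 KO and 2.09 CPM in WT. The DNA-binding partners of this form were not called lower. E2f6 rose by 0.19 ± 0.03, Max was higher at 68.5 ± 0.99 CPM in BAP1 KO and 63.4 ± 0.83 CPM in WT, and Mga did not pass, at 66.9 CPM in BAP1 KO and 65.7 CPM in WT (adjusted p = 0.49). Max and Mga, like the genes named for overlapping exons, were added after their values were seen.

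Of the PCGF3 and PCGF5 pair, which share a variant form, Pcgf3 did not differ detectably (68.8 ± 1.6 CPM in BAP1 KO and 68.6 ± 0.73 CPM in WT; interval -0.05 to 0.06). With GC and length trends taken out it was called higher (0.08). Pcgf5 had 19.1, 19.3, 20.6 and 18.8 CPM in BAP1 KO, against 21.8, 22.0, 22.3 and 20.7 CPM in WT, a fall of 0.16 ± 0.04 (adjusted p = 0.0012) in groups that nearly touch. RYBP and YAF2 occupy the site on RING1 and RNF2 that CBX proteins use. Yaf2 stood at 39.2 ± 1.4 CPM in BAP1 KO and 38.9 ± 1.7 CPM in WT (interval -0.06 to 0.08), and was called only with GC and length trends taken out (0.07). Rybp stood at 2.91 ± 0.42 CPM in BAP1 KO and 2.73 ± 0.23 CPM in WT, with a wider interval of -0.11 to 0.30.

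**Figure D3:**
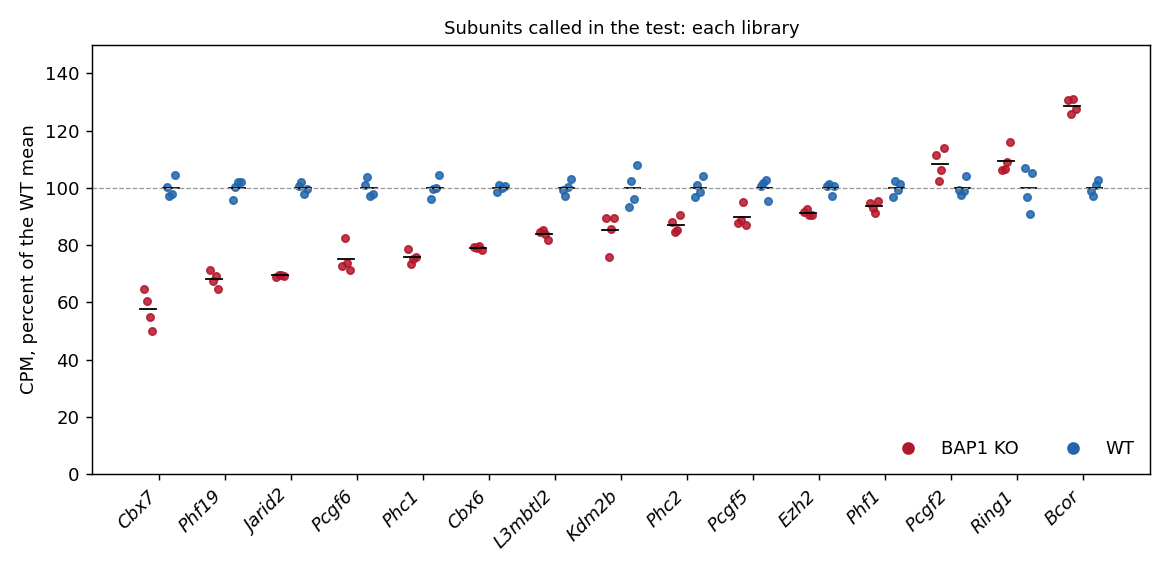
CPM of the 15 called subunits in each library, in percent of the WT mean (BAP1 KO red, left; WT blue, right; black bars are means of n = 4). For the 12 genes called lower, of which Cbx7 is at 57.5% of WT, all BAP1 KO points lie below the WT points; for Ring1 and Pcgf2 the groups overlap, and Bcor lies above.

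Differences in the PRC2 core were small. Of 6 genes, 1 fell and 5 did not pass, so 16.7% were called, against 61.1% of all tested genes. Ezh2, the methyltransferase of dividing cells, had 22.4, 22.7, 22.2 and 22.2 CPM in BAP1 KO, against 24.6, 24.9, 23.8 and 24.7 CPM in WT. Groups did not overlap, but the fall was small, -0.13 ± 0.04 on the log2 scale (adjusted p = 0.0020). With GC and length trends taken out it was -0.06 (adjusted p = 0.11). Ezh1, its paralogue of resting tissues, stood at 32.7 ± 0.97 CPM in BAP1 KO and 33.6 ± 0.11 CPM in WT (interval -0.10 to 0.03). Eed, which reads the finished mark, stood at 30.8 ± 0.50 CPM in BAP1 KO and 31.1 ± 0.98 CPM in WT (interval -0.08 to 0.05). The scaffold Suz12 stood at 51.9 ± 1.6 CPM in BAP1 KO and 53.2 ± 0.95 CPM in WT (interval -0.09 to 0.02). Rbbp4 and Rbbp7 stood at 190.4 ± 5.2 and 184 ± 5.0 CPM in BAP1 KO and 196 ± 3.5 and 190.6 ± 1.9 CPM in WT, with adjusted p of 0.10 and 0.052. Both passed with upper quartile factors, with library totals alone and without BAP1 KO replicate 2, at log2 changes no larger than 0.07 in size. Rbbp7 also passed with CPM above 1 as the filter, with 1 surrogate variable and without WT replicate 4 (adjusted p = 0.042, 0.036 and 0.044). For the core genes other than Ezh2, the intervals reached at most about 0.10 on the log2 scale in size. They reflect how these libraries vary, which may be technical, and do not bound a difference between animals or cultures.

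Of the 5 accessory subunits, 3 fell, or 60%. Among all tested genes 32.1% were called lower, and 61.1% were called in either direction. Jarid2 and Phf19 changed most, while Phf1, Mtf2 and Aebp2 differed by less than Ezh2 did. Jarid2, which with AEBP2 defines the PRC2.2 form and recruits it to chromatin, had 15.1, 15.3, 15.3 and 15.2 CPM in BAP1 KO, against 22.0, 22.3, 21.4 and 21.8 CPM in WT. The libraries of each genotype were tightly grouped, at 69.5% of the WT level in BAP1 KO (-0.53 ± 0.04, adjusted p = 3.3e-13). Aebp2, its partner, did not pass, at 82.2 ± 1.1 CPM in BAP1 KO and 80.9 ± 1.1 CPM in WT (interval -0.03 to 0.07). With GC and length trends taken out it was called higher at 0.05.

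The Polycomb-like proteins PHF1, MTF2 and PHF19 define the PRC2.1 form and bind DNA through a winged helix. Phf19 had 8.30, 7.84, 8.04 and 7.53 CPM in BAP1 KO, against 11.1, 11.6, 11.9 and 11.8 CPM in WT, at 68.1% of the WT level (-0.55 ± 0.05, adjusted p = 7.3e-11). Mtf2 had 13.5 to 14.7 CPM in BAP1 KO, against 14.8 to 15.3 CPM in WT, which do not overlap but did not pass (-0.08 ± 0.04, adjusted p = 0.10). Phf1 had 16.1, 15.8, 15.5 and 16.2 CPM in BAP1 KO, against 16.4, 17.4, 16.9 and 17.2 CPM in WT (-0.10 ± 0.04, adjusted p = 0.043). That call was lost with RLE factors, DESeq2 or no filter, and without any 1 library other than WT replicate 1 (-0.10 to -0.08, adjusted p = 0.050 to 0.12). Phf1 exons overlap those of Cuta on the opposite strand over 39.3% of their length, and Cuta rose by 0.08 ± 0.03. Smaller overlaps on opposite strands join Rbbp4 to Sync (8.94% of exon length; Sync rose by 0.27 ± 0.03), Mtf2 to Tmed5 (6.93%; Tmed5 fell by 0.16 ± 0.06) and Kdm2b to Rnf34 (5.77%; Rnf34 did not pass). Phf19 made up 19.7 ± 0.91% of the summed RPKM of the 3 Polycomb-like genes in BAP1 KO and 25.2 ± 0.37% in WT.

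Promoter windows of the subunits were searched for 8 motifs on both strands. E2F factors drive genes of DNA replication, and human EZH2 and EED are known E2F targets. The E2F letters TTTCCCGC, TTTGGCGC, TTTCGCGC or TTTGCCGC were found in 3 of 27 subunits with a window, namely Phf19, Ezh2 and Suz12, and in 4.41% of 12330 tested genes with a window. All 3 are PRC2 genes. Phf19 and Ezh2 fell, and Suz12 did not pass. Mouse Eed had a window without a match and did not pass either. Their windows run from 250 bases before to 50 after the start, from RefSeq on GRCm38.p6. Phf19 is chr2:34913927-34914226 on the minus strand, Ezh2 chr6:47594981-47595280 on the minus strand and Suz12 chr11:79992856-79993155 on the plus strand. Capitals mark the match, read on the reverse strand for Phf19, which begins at base -208, 4 and -219 from the start in that order.
Phf19: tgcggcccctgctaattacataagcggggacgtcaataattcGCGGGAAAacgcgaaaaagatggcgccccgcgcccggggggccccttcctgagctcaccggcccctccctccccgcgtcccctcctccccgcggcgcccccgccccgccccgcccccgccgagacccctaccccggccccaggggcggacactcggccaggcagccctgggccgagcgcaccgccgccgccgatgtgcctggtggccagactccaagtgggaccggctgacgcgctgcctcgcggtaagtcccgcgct
Ezh2: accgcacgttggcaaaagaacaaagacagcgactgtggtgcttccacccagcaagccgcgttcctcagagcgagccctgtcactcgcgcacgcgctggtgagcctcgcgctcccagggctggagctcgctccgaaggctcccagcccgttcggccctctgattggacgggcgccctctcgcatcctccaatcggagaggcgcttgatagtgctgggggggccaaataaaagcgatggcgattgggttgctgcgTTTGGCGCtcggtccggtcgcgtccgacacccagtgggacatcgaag
Suz12: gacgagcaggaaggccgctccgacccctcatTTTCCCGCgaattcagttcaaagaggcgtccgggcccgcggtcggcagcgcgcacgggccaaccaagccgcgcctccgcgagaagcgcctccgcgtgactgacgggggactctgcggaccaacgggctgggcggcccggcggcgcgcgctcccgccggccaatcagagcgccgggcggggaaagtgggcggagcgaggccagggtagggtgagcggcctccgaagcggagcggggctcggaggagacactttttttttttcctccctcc
These matches say nothing of whether E2F factors were bound. Of the other motifs, the YY1 letters GCCATNTT occurred in 5 of 27 subunits (9.07% of tested genes) and the E-box CACGTG in 7 of 27 (11.1%). SP (GGGCGG) occurred in 20 of 27 (64.6%), the CCAAT box in 14 of 27 (42.1%), CRE (TGACGTCA) in 1 of 27 (3.31%) and ETS (CCGGAAG) in 1 of 27 (17.7%). Taking the richest window of each gene, subunits held a median of 24 CpG dinucleotides (9 to 49) and tested genes a median of 21.

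Most of the listed cell division genes fell, as did 12 subunits, Ezh2 and Phf19 among them. Of 22 replication and mitosis genes, 19 fell, 1 rose and 2 did not pass, with a median log2 change of -0.15. Among all tested genes 32.1% were called lower and 29.0% higher. The 22 genes summed to 1321 to 1352 CPM in BAP1 KO and 1435 to 1451 CPM in WT. The 4 with the smallest adjusted p, Top2a, Ccna2, Cdk1 and Bub1, fell by 0.41 ± 0.03, 0.36 ± 0.03, 0.34 ± 0.03 and 0.44 ± 0.04. Phf19 fell by 0.55 ± 0.05, more than any of the 22, and Ezh2 by 0.13 ± 0.04. The part of cell division in the changes of these and the other subunits was not tested.

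Ratios of paralogues within a library do not depend on scaling between libraries, and 9 pairs were compared in RPKM. In 4 pairs BAP1 KO and WT did not overlap. The Cbx8 to Cbx7 ratio was 2.61, 2.66, 3.09 and 3.45 in BAP1 KO, against 1.70, 1.60, 1.75 and 1.53 in WT. The Mtf2 to Phf19 ratio was 1.16, 1.29, 1.17 and 1.36 in BAP1 KO, against 0.94, 0.89, 0.90 and 0.87 in WT. In CPM, Mtf2 exceeded Phf19 in every library of both genotypes. Which paralogue is the more abundant in WT therefore depends on the gene lengths behind the RPKM, while the shift in the ratio does not. Phc2 to Phc1 was 5.43 to 5.79 in BAP1 KO and 4.79 to 4.92 in WT. Pcgf5 to Pcgf3 was 0.169 to 0.183 in BAP1 KO and 0.189 to 0.204 in WT. Each of the 4 reached an exact two-sided permutation p of 0.029, the smallest that 4 against 4 libraries can give, and 0.064 after Benjamini-Hochberg adjustment over the 9 pairs. With so few libraries, no pair could pass 0.05 unless most pairs reached the smallest p. The ratios use the same libraries and genes as the single-gene tests above and are not separate support for those calls.

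In the other 5 pairs the genotypes overlapped. Rnf2 to Ring1 was 1.45 to 1.61 in BAP1 KO and 1.55 to 1.87 in WT, and Ezh2 to Ezh1 1.09 to 1.18 in BAP1 KO and 1.18 to 1.23 in WT (exact permutation p = 0.057, adjusted 0.086, for both). Bmi1 to Pcgf2 was 1.10 to 1.33 in BAP1 KO and 1.19 to 1.37 in WT (exact permutation p = 0.29, adjusted 0.37). Rybp to Yaf2 was 0.034 to 0.047 in BAP1 KO and 0.032 to 0.041 in WT (exact permutation p = 0.60, adjusted 0.68). Rbbp4 to Rbbp7 was 0.52 to 0.54 in both genotypes (exact permutation p = 0.69, adjusted 0.69).

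**Figure D4:**
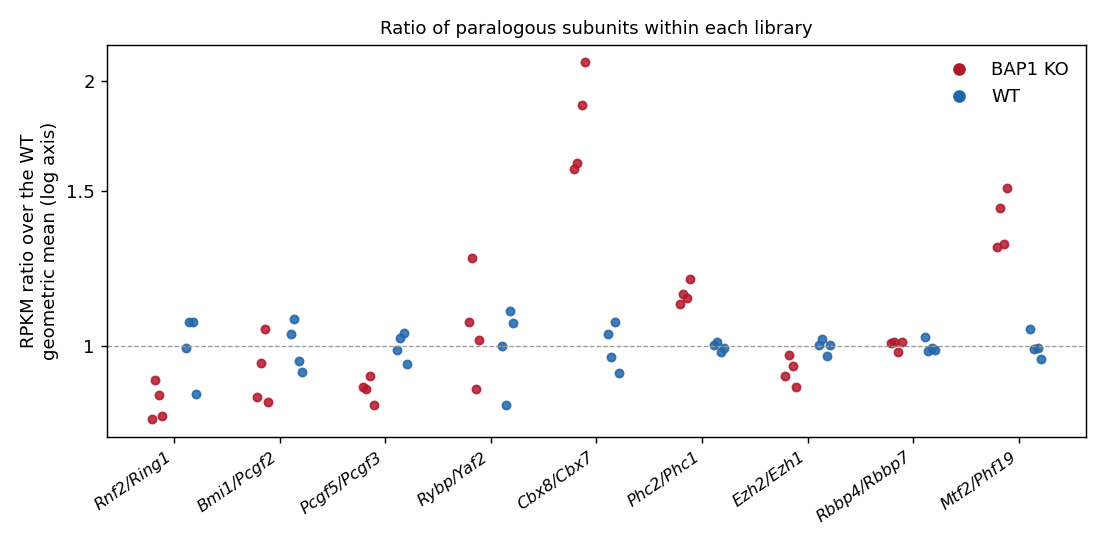
RPKM ratio of 9 paralogue pairs in each library, divided by the WT geometric mean of the pair (log axis; BAP1 KO red, left; WT blue, right; n = 4 each). BAP1 KO points lie apart from WT points for Cbx8/Cbx7, Mtf2/Phf19, Phc2/Phc1 and Pcgf5/Pcgf3, while Rbbp4/Rbbp7 stays within 0.52 to 0.54 before division.

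Other genes that work with or against Polycomb moved both ways. Of 22 further genes associated with variant PRC1 or PRC2, 7 rose, 3 fell and 12 did not pass. Their median log2 change was 0.04, and 45.5% were called, against 61.1% of all tested genes. Fbrsl1, a homologue of the AUTS2 and FBRS proteins of the PCGF3 and PCGF5 forms, rose by 0.35 ± 0.04, and Sfmbt1, an MBT-repeat protein, by 0.21 ± 0.03. Bcorl1, the paralogue of Bcor, fell by 0.29 ± 0.04 where Bcor rose. Among 10 partners of BAP1, 7 rose, 2 fell and 1 did not pass. Their median log2 change was 0.18, and 90% were called. Asxl2, which activates BAP1, rose by 0.34 ± 0.03. Asxl3, present at only 1.32 CPM in BAP1 KO and 0.43 CPM in WT, rose by 1.62 ± 0.16, Hcfc1 by 0.18 ± 0.02 and Mbd5 by 0.32 ± 0.04. Of 6 enzymes that remove the Polycomb marks, Kdm6a rose by 0.14 ± 0.03, Usp22 fell by 0.07 ± 0.02, and 4 did not pass (33.3% called).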

How the data were processed

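RNA of 8 mouse omental mesothelial libraries was grouped by the genotype in the labels, which name no batch or pairing. Replicate numbers follow the order of the samples in the archive, only name a library and pair nothing. The deposited counts are whole reads aligning uniquely to a gene model, and the deposited RPKM carry a size factor that is not described further, both per the file headers. Per the submitters' processing notes, GSNAP and GRCm38 were used, and no source used here names the annotation. The kit, TruSeq RNA v2 per the labels' protocols, does not mark strand, so reads of genes overlapping on opposite strands cannot be told apart.

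Entrez identifiers were matched to symbols through RefSeq on GRCm38.p6 (31049 of 36528) and GENCODE vM21 (74 more). Counts were tested with edgeR 4.0.16 in R 4.3.3 (quasi-likelihood F test, robust, TMM, filterByExpr), with Benjamini-Hochberg adjustment over the 16929 tested genes and a threshold of 0.05. The SE is the size of the log2 fold change over root F. Nothing in the labels ties libraries to separate cultures or animals, so p-values reflect only how these libraries vary, which may be technical. Totals were 67.1 to 84.9 M counts, with a biological coefficient of variation of 0.029. Levels were compared between genes in the deposited RPKM, and paralogue ratios were tested by exact permutation.

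Alternatives were RLE, upper quartile or no factors; no filter, or CPM above 1 in at least 4; DESeq2 (1.42.0); limma-voom (3.58.1); 1 surrogate variable from sva (3.50.0); a 1.5-fold null; GC and length trends taken out (84.0% of tested genes had both values); raw counts for the ratios; and each library left out. The subunits and all lists were chosen with earlier results of these data known. All 31 subunits are named. Genes of other lists come from the up to 4 called with the smallest adjusted p. Exceptions are Lep, Upk3b and those said to be added after their values were seen. Auts2 was not matched and is not analysed here.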

Additional observations from a re-analysis of the deposited data

Results flagged for a closer look

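In 8 of 154 groups of 4 libraries, 1 library stood apart from the other 3, with a gap to the nearest of more than 0.829 of the group's range. Chance alone gives about 1 in 20 such groups. For Rnf2, BAP1 KO replicate 1 had 41.7 CPM and the others 45.5 to 46.2 CPM. For Yaf2, the same library had 37.2 CPM and the others 39.6 to 40.1 CPM. For Bmi1, BAP1 KO replicate 3 had 26.8 CPM and the others 23.6 to 23.7 CPM. For Pcgf1, BAP1 KO replicate 4 had 2.56 CPM and the others 2.33 to 2.35 CPM. In WT, replicate 4 had 79.2 CPM of Aebp2, with the others at 81.2 to 81.7 CPM, and 49.7 CPM of Sfmbt1, with the others at 52.8 to 53.4 CPM. Lyz2 stood at 10675 CPM in BAP1 KO replicate 3 and 11119 to 11160 CPM in the others. The Rbbp4 to Rbbp7 ratio was 0.523 in BAP1 KO replicate 3 and 0.536 to 0.537 in the others. None of the subunits named here was called in the comparison of genotypes.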

How the results depend on the processing

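Subunits called ran from 3 higher and 11 lower (RLE factors, DESeq2) to 3 higher and 16 lower (upper quartile factors, library totals alone) over the scalings and tools. In the test against a 1.5-fold change (edgeR glmTreat), 0 subunits were higher (0 at an unadjusted p under 0.05; DESeq2, testing against no change, called 3) and 1, Cbx7, was lower, against 370 higher and 1014 lower of all tested genes, and Bap1 (-0.25) did not pass; this null asks for a larger change by construction. With GC and length trends taken out, 5 subunits were higher and 12 lower. Ring1, Pcgf2 and Ezh2 then lost their calls, and Bmi1, Pcgf3, Yaf2, Aebp2 and Cbx2 gained one; the cause was not tested.

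Leaving out 1 library gave 1 to 3 subunits higher (1 without BAP1 KO replicate 4) and 11 to 14 lower, 4650 to 4883 higher and 5172 to 5370 lower of all tested genes, and a Bap1 change of -0.26 to -0.24. Cbx6, Cbx7, Phc1, Phc2, Pcgf5, Pcgf6, Kdm2b, L3mbtl2, Jarid2, Phf19 and Bcor kept direction and call in all alternatives but the 1.5-fold test, where Cbx7 alone kept it. No paired analysis was possible because the labels carry no replicate numbers; those used here only name libraries. Intervals were widest for Rybp, Pcgf1, Cbx7 and Cbx2, the subunits with the lowest counts.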
